A study of Drosophila melanogaster with 7 samples.

Results

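Box C/D and box H/ACA small RNAs other than the snoRNA:Psi genes were examined in stage 5 *Drosophila melanogaster* embryos, in control embryos and in embryos depleted of HP1. The genes were taken by symbol: every gene of the count table whose FlyBase symbol begins with snoRNA: or scaRNA:, with the 106 snoRNA:Psi genes left aside. This gave 152 of 17699 genes, of which 73 are snoRNA:Me genes, 64 are snoRNAs of other names and 15 are scaRNAs. Control embryos (4 libraries) came from Bloomington stock #36303. HP1-KD embryos (3 libraries) came from mothers in which a TRiP RNAi line for HP1 (Bloomington stock #33400) was driven by the Gal4 line #7063 in the female germ line, and these mothers were mated to their siblings. The knockdown is partial and maternal, each group rests on the fly stock named, and the labels do not say whether the control stock carried the driver. Both groups were staged by hand under oil, and embryos were moved one at a time into Trizol. The labels do not say how many embryos a library holds or whether libraries came from separate collections, so p-values measure the spread between these libraries.

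Small nucleolar RNAs are short non-coding RNAs that work inside protein complexes in the nucleolus. Box C/D snoRNAs pair with ribosomal RNA and lead the methyltransferase Fibrillarin to the nucleotide to be methylated on its ribose, and box H/ACA snoRNAs lead the enzyme dyskerin (Nop60B in flies) to uridines that become pseudouridine. A few, such as U3, are instead needed to cut the ribosomal RNA precursor. scaRNAs are relatives that reside in Cajal bodies and modify the spliceosomal snRNAs. Most fly snoRNAs are released from introns of a host gene, either a protein-coding gene or a non-coding Uhg gene whose introns carry several of them.

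These annotations shaped what could be measured. The snoRNA:Me RNAs had a median length of 79 nt, against 118 nt for the other snoRNAs and 137 nt for the scaRNAs. Of the 152 genes, 123 lie within an intron of a host gene on the same strand, 20 overlap an exon of another gene on the same strand and 9 have no host. Within these classes, 7 genes overlap an exon on the opposite strand, and 61 belong to sets of copies that share a name. How reads were assigned to strands, overlapping genes or copies is not given in the sources used here, so values of such genes are uncertain. Control levels per length were higher for longer RNAs. RNAs of up to 100 nt (99 genes) had a median of 1.75 CPM per kb, those of 101 to 150 nt (33 genes) 3.81, and those of 151 to 400 nt (20 genes) 34.6.

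**Figure D1:**
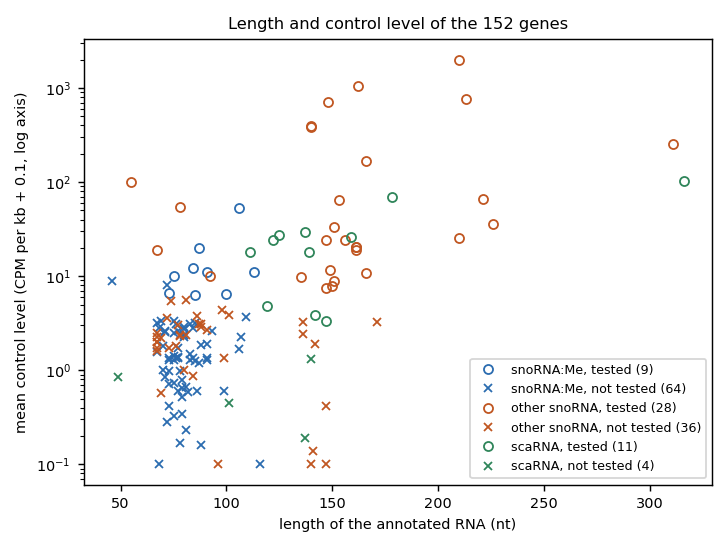
Length of each annotated RNA in nt (horizontal) against its mean level in the 4 control libraries in CPM per kb (vertical, log axis, 0.1 added so that zeros can be drawn), coloured by group. Circles are the 48 genes with enough counts for the test and crosses the other 104; 88 of the 99 RNAs of up to 100 nt are crosses, and the highest points are U3:54Ab, Or-aca4, U3:9B and Or-aca5.

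The libraries held 8678092 to 16983585.5 estimated counts. Su(var)205, the gene that encodes HP1a, stood at 189, 217, 275 and 230 CPM (depth-scaled counts, with the TMM factors of edgeR) in control libraries 1 to 4 and at 81.4, 99.0 and 82.4 CPM in HP1-KD libraries 1 to 3, a log2 fold change of −1.38 ± 0.15 (SE, edgeR quasi-likelihood test, adjusted p = 0.00231). None of 12 markers of the stage 5 blastoderm was called changed, and 11 of them had a negative log2 fold change. In 5 of the 12 (ftz, Kr, kni, gt and slam) every HP1-KD library was below every control library. That order was found in 1213 of all 8008 tested genes. Ribosomal RNA took 15.3 to 47.2% of the counts in control libraries and 37.3 to 80.7% in HP1-KD libraries. HP1-KD library 1 stood apart by ovary and yolk RNA: Yp1, Yp2 and Yp3 stood at 114, 84.9 and 117 CPM there and at 2.11 CPM or less in every other library. Control library 3 stood apart in several listed markers. oskar stood at 43.5 CPM there against 169 to 198 CPM in the other controls, and gcl at 39.2 against 97.3 to 125 CPM. For bnk the values were 45.3 against 102 to 168 CPM, and for elav 73.7 against 7.85 to 20.0 CPM. Other markers, such as Kr and gt, did not set this library apart. The part of these differences in the results was not tested, and values without the libraries are given beside the counts.

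The summed level of the 152 RNAs was lower in every HP1-KD library than in any control library. It was 1064, 1277, 1344 and 1303 CPM in control libraries 1 to 4 and 460, 336.5 and 253 CPM in HP1-KD libraries 1 to 3, so that HP1-KD libraries held 28.1% of the control mean. The sum uses all 152 genes, with no filter on low counts. As a share of counts outside ribosomal RNA, the RNAs took 0.208 to 0.266% in controls and 0.0536 to 0.0912% in HP1-KD libraries, and the 95% Wilson intervals of the closest pair were 0.205 to 0.211% and 0.0880 to 0.0945%. Only counting error enters such an interval. In bulk RNA, fewer cells that hold an RNA and less RNA per cell cannot be told apart. HP1-KD library 2 held 37.3% ribosomal RNA and control library 1 held 47.2%, with summed levels of 336.5 and 1064 CPM. Among the controls, library 1 held the most ribosomal RNA, against 15.3 to 18.1% in the others, and had the lowest sum. The part of ribosomal RNA content in the sums was not tested. HP1-KD library 1 had the highest of the 3 HP1-KD sums, so leaving it out cannot change the order of the groups.

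In each of the 3 groups the summed level was lower in every HP1-KD library than in any control library. The other snoRNAs carried most of the signal, with 991, 1189, 1242 and 1220 CPM in the controls and 417, 298 and 223 CPM in HP1-KD libraries, or 27.0% of control. The scaRNAs summed to 53.8, 66.9, 74.9 and 66.3 CPM in controls and to 34.1, 25.7 and 22.9 CPM in HP1-KD libraries, or 42.1%. The snoRNA:Me guides were scarce throughout, with 19.6, 21.7, 27.3 and 16.3 CPM in controls and 9.33, 12.5 and 7.10 CPM in HP1-KD libraries, or 45.4%. Control library 1 was the lowest control for the other snoRNAs and the scaRNAs, and control library 4 for the snoRNA:Me guides. The snoRNA:Me sum rested on 280.5 to 636.5 counts per control library and 49.5 to 136 per HP1-KD library. The 6 RNAs with the highest control level held 79.5% of the control sum, and the 146 others without them stood at 31.8% of control.

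**Figure D2:**
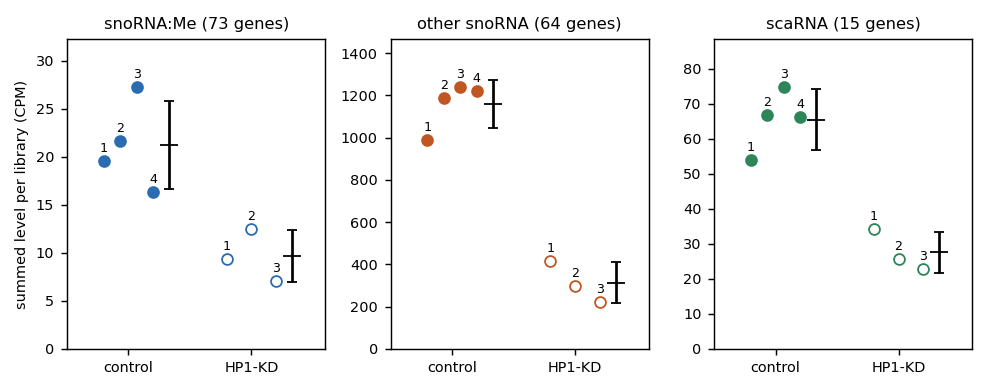
Summed level per library in CPM (vertical, starting at 0) of the 73 snoRNA:Me genes, 64 other snoRNA genes and 15 scaRNA genes. Numbered points are libraries, and bars are the mean ± SD of 4 control or 3 HP1-KD libraries. In each group the highest HP1-KD library (12.5, 417 and 34.1 CPM) lies below the lowest control library (16.3, 991 and 53.8 CPM).

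Over single genes, 147 of the 152 had a count in some library, and the HP1-KD mean was below the control mean for 132 of them. In 72 genes every HP1-KD library was below every control library, an order found in 11.1% of all genes with a count. The 15 genes with a higher mean in HP1-KD embryos had at most 9.5 counts in any library. Enough counts for edgeR's quasi-likelihood test were present for 48 genes: 9 snoRNA:Me, 28 other snoRNAs and 11 scaRNAs. Of these, 27 fell (adjusted p under 0.05 over 8008 genes), comprising 2 snoRNA:Me, 19 other snoRNAs and 6 scaRNAs, and none rose. No alternative fit, DESeq2's Wald test and limma-voom included, called one higher. Across all tested genes 4.9% fell and 3.7% rose. The count is a description, since an RNA that enters the test only through its control libraries was bound to differ. Where every library was required to hold at least 10 counts, 16 of the 152 remained and 11 of them fell, against 3.66% of all genes under that filter. This requirement in turn removes RNAs that became rare. With no filter, 25 of 144 fell, against 2.38% of all genes. The median log2 fold change was −2.10 over the 48 tested genes and −0.03 over all tested genes.

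The number called leaned on single libraries. It was 20 of 51 tested genes without HP1-KD library 1, 11 of 52 without HP1-KD library 2, 10 of 51 without HP1-KD library 3, 18 of 39 without control library 2 and 14 of 41 without control library 4, against 32 of 43 and 28 of 37 without control library 1 or 3. Calls over all tested genes moved in the same direction in each fit. Against 392 of 8008 with all libraries, 171 of 8231 fell without HP1-KD library 1. Without HP1-KD library 2 or 3, 137 of 8245 and 130 of 8229 fell. Without control library 2 or 4, 227 of 7769 and 138 of 7751 fell, and without control library 1 or 3, 510 of 7884 and 637 of 7683. None of the tested small RNAs rose in these fits. Of their log2 fold changes, 50 of 51 were negative without HP1-KD library 3, as were all those of the other 6 fits. Of the 21 genes that the naming rule picked and that fell, 8 kept their call in each of the 7 fits: U3:54Ab, U3:9B, Or-aca3, Or-aca4, Or-CD2, snoRNA:229, snoRNA:2R:9445205 and PsiU2-55. The other 13 lost the call or left the test in at least 1 fit, 12 of them without HP1-KD library 3, 11 without HP1-KD library 2, 9 without control library 4, 7 each without control library 2 and HP1-KD library 1, and 1 (Or-CD8) without control library 1 or 3.

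**Figure D3:**
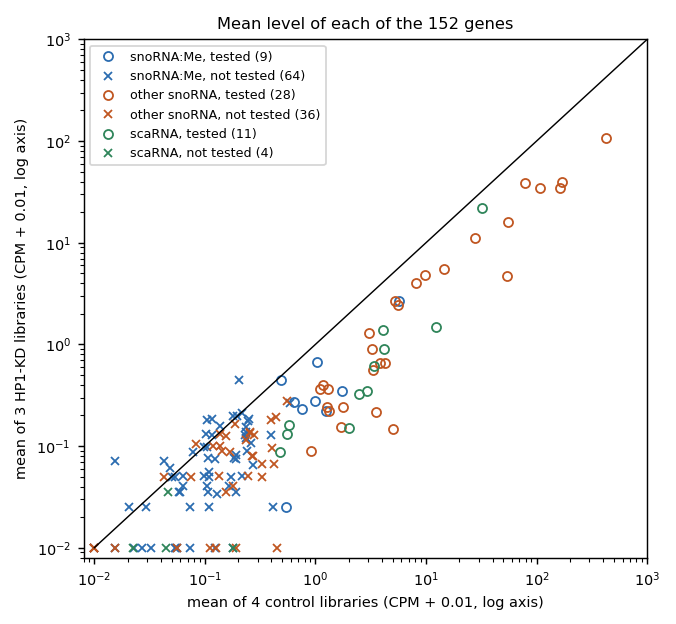
Mean level of each of the 152 genes in the 4 control libraries (horizontal) and the 3 HP1-KD libraries (vertical), in CPM with 0.01 added, on log axes. The line marks equal levels, circles are the 48 tested genes and crosses the 104 others. All circles lie below the line, and the crosses above it hold at most 9.5 counts in any library.

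U3, the box C/D snoRNA that pairs with the ribosomal RNA precursor and is required for cutting out 18S rRNA, was the most abundant of these RNAs, and 2 of its 3 copies fell. The U3 genes are transcribed on their own and have no host. Over the 3 copies the level was 484, 623, 639 and 607 CPM in the controls and 179, 156 and 96.6 CPM in HP1-KD libraries, or 24.4% of control. U3:54Ab (2R, 17145617 to 17145826, dm6, 210 nt) stood at 342, 441, 468 and 432 CPM in controls and at 134, 116 and 70.9 CPM in HP1-KD libraries, a log2 fold change of −1.98 ± 0.23 (SE, edgeR adjusted p = 0.00266). U3:9B (X, 10348125 to 10348337) stood at 138, 175, 164 and 170 CPM in controls and at 42.0, 37.5 and 23.8 CPM in HP1-KD libraries, with a log2 fold change of −2.23 ± 0.21 (edgeR adjusted p = 0.00119). In both, the highest HP1-KD library was far below the lowest control. U3:54Aa (2R, 17143521 to 17143730), at 3.49 to 6.35 CPM in controls and 1.87 to 3.09 CPM in HP1-KD libraries, was not called (−0.98 ± 0.31, edgeR adjusted p = 0.0888), although its conditions did not overlap. The 3 copies share a name, so the split of reads among them is uncertain. Their sum does not depend on that split, but whether reads shared by copies were counted at all is not given here.

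U14, a box C/D snoRNA known from yeast to be needed for 18S rRNA maturation, was seen only in controls. Its copies U14:30Ea and U14:30Eb lie in introns of Uhg2 on 2L and were too scarce for the test. Together they had 10, 11, 18.5 and 8.5 counts in control libraries and 0 in each HP1-KD library. Taking 3 counts over the pooled HP1-KD libraries as the limit (0.123 CPM), U14 was at least 5.09-fold lower over the pooled libraries, a bound that covers counting error only.

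The orphan snoRNAs, whose symbols carry Or because no target is assigned to them, also stood below control in every HP1-KD library when summed, while the scarce Or-CD11a, Or-CD11b, Or-CD12 and Or-aca2, none of them tested, did not separate the conditions. The 5 box H/ACA genes named Or-aca summed to 246 to 313 CPM in controls and 53.1 to 112 CPM in HP1-KD libraries (26.5% of control). The 10 box C/D genes named Or-CD summed to 54.3 to 61.0 CPM and 3.01 to 9.49 CPM (9.69%), a sum made up mostly of Or-CD2, and the 9 others without it stood at 23.6% of control. Or-aca4 (2R, 17616756 to 17616917, no host) had 140, 152, 181 and 200 CPM in controls and 57.6, 33.5 and 26.8 CPM in HP1-KD libraries, a log2 fold change of −2.11 ± 0.28 (edgeR adjusted p = 0.00504). It overlaps an exon of CG44403 on the opposite strand.

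Or-aca5 and Or-CD2 are released from the same host, Uhg4, and both fell. Or-aca5 (2R, 9095685 to 9095832) was nearly flat across the controls at 102, 106, 111 and 107 CPM and stood at 53.8, 22.8 and 25.9 CPM in HP1-KD libraries, with a log2 fold change of −1.65 ± 0.29 (edgeR adjusted p = 0.0158). Or-CD2 (2R, 9097030 to 9097169) was as flat in the controls, at 57.1, 55.5, 52.0 and 51.5 CPM, and stood at 8.10, 3.54 and 2.58 CPM in HP1-KD libraries, with a log2 fold change of −3.55 ± 0.35 (edgeR adjusted p = 0.00153). The difference between them was not tested, and Or-CD2 overlaps an exon of Ctu1 on the opposite strand. Uhg4 itself was at 3.11 CPM in controls and 3.43 CPM in HP1-KD embryos and was not called (0.15 ± 0.37, edgeR adjusted p = 0.796).

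The steepest falls were in RNAs left with a handful of counts. The RNA named snoRNA:2R:9445205, which lies at 2R, 13557700 to 13557850 in dm6 and has no host, had 38.5, 138, 120 and 98.5 counts in controls and 1.5, 2 and 0 in HP1-KD libraries. Its log2 fold change was −4.86 ± 0.67 (edgeR adjusted p = 0.00620), and its pooled HP1-KD level was 2.79% of control with an exact 95% counting interval of 0.864 to 8.22%. Or-aca3, in an intron of RpL4, stood at 2.55 to 3.97 CPM in controls and 0.0919 to 0.386 CPM in HP1-KD libraries, with a log2 fold change of −4.32 ± 0.47 (edgeR adjusted p = 0.00218). Or-CD8 stood at 0.425 to 1.08 CPM and 0.0717 to 0.0919 CPM, a pooled level of 9.12% of control with a counting interval of 1.08 to 34.2% (log2 fold change −4.23 ± 0.87, edgeR adjusted p = 0.0271).

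Several hosts other than the Uhg genes carry tested snoRNAs whose targets are not given in their symbols. The RNA snoRNA:229, in an intron of Fib, had 44.4, 53.1, 63.4 and 59.7 CPM in controls and 22.7, 13.7 and 11.5 CPM in HP1-KD libraries, with a log2 fold change of −1.80 ± 0.25 (edgeR adjusted p = 0.00699). Of the 4 RNAs of lola, lola-c and lola-d were not tested and the other 2 fell, lola-a with a log2 fold change of −2.64 ± 0.63 (edgeR adjusted p = 0.0421) and lola-b with −2.57 ± 0.65 (edgeR adjusted p = 0.0495). In SC35, SC35-b fell by 2.69 ± 0.45 on the log2 scale (edgeR adjusted p = 0.0141), while SC35-a, more abundant per length, was not called at −1.06 ± 0.31 (edgeR adjusted p = 0.0727). In Usp10, CG32479-b fell by 1.41 ± 0.25 on the log2 scale (edgeR adjusted p = 0.0179) and CG32479-a was not called at −1.02 ± 0.32 (edgeR adjusted p = 0.0865). A call in one RNA and not in the other does not show that they differ, and these differences were not tested. The 4 tested RNAs longer than 220 nt (MeU5-C46, Tudor-SN-a, CG32479-a and CG32479-b) had log2 fold changes of −1.41 to −0.56, against a median of −2.12 over the 44 shorter ones. Over all 48, length and log2 fold change had a Spearman rho of 0.142, a description over RNAs that share 7 libraries.

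Of the 73 snoRNA:Me guides, whose symbols give the methylated nucleotide, 64 were too scarce to test, and the median guide had a mean of 2.13 counts per control library. By target in the symbol, the 19 guides to 18S rRNA stood at 44.0% of control in sum and the 51 guides to 28S rRNA at 47.3%. Me18S-C1968 (2R, 22197269 to 22197374), in an intron of Swim, was the most abundant and held 26.7% of the control sum. It stood at 5.17, 6.58, 6.46 and 4.50 CPM in controls and 2.78, 2.94 and 2.22 CPM in HP1-KD libraries, with a log2 fold change of −1.08 ± 0.25 (edgeR adjusted p = 0.0386). Its annotated host Swim was not tested, with 0 CPM in every control library and a mean of 0.0306 CPM in HP1-KD libraries. Me28S-A3407a (2R, 17699702 to 17699788), in Uhg1, stood at 2.37, 1.74, 1.87 and 1.00 CPM in controls and 0.231, 0.505 and 0.287 CPM in HP1-KD libraries, with a log2 fold change of −2.10 ± 0.47 (edgeR adjusted p = 0.0346). The call of Me18S-C1968 held in 2 of the 7 fits that leave out a library, and that of Me28S-A3407a in 3 of 7.

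The other guides with the highest control levels per length were not called. Me18S-A1576 in Uhg2 had a log2 fold change of −2.33 ± 0.75 (edgeR adjusted p = 0.0894). Me28S-G2703a and Me18S-C1366, both in Uhg5, had −1.99 ± 0.67 and −1.31 ± 0.45, and in these 3 guides the conditions did not overlap. Me28S-U2134a, which overlaps an exon of its host RpL13A, had −1.53 ± 0.60 and overlapping conditions. Me18S-A425, which overlaps an exon of RpL3, stood at 0.628, 0.766, 1.42 and 1.25 CPM in controls and 0.540, 1.15 and 0.287 CPM in HP1-KD libraries, which overlap. Its log2 fold change of −0.53 ± 0.52 (edgeR adjusted p = 0.504) is within the spread of the libraries. Me18S-C1096, in an intron of the same gene, had 3 to 20 counts in controls and 0.5 counts in all HP1-KD libraries together, and was not called (edgeR adjusted p = 0.0515). Me18S-A425 and Me18S-C1096 lie opposite exons of asRNA:CR31144. The 16 genes in introns of Uhg1 summed to 33.4% of control and the 11 in introns of Uhg5 to 49.1%.

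Of the 15 scaRNAs, 11 were tested and 6 fell. Their box type was read from the symbol alone (Psi for H/ACA, Me for C/D) and was not checked against a sequence. The 6 scaRNAs named Psi summed to 19.7, 24.8, 23.9 and 25.9 CPM in controls and 6.87, 2.48 and 3.16 CPM in HP1-KD libraries (17.7% of control). The 9 scaRNAs named Me summed to 34.1, 42.0, 51.0 and 40.5 CPM in controls and 27.2, 23.2 and 19.7 CPM in HP1-KD libraries (55.9%). A single RNA separates these shares. MeU5-C46 (3R, 7472907 to 7473222, 316 nt), in an intron of CG1142, held 49.6% of the control level of all scaRNAs and stood at 24.8, 33.6, 39.2 and 32.2 CPM in controls and 25.5, 22.3 and 18.4 CPM in HP1-KD libraries. Its conditions overlap, and its log2 fold change of −0.56 ± 0.19 was not called (edgeR adjusted p = 0.101). Without it, the other 8 scaRNAs named Me summed to 8.25 to 11.8 CPM in controls and 0.965 to 1.77 CPM in HP1-KD libraries, or 14.2% of control.

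PsiU2-55 (2R, 12161126 to 12161303), in an intron of Prp8 and named for uridine 55 of U2 snRNA, had the smallest adjusted p of all 48 tested genes. It stood at 9.98, 12.6, 12.2 and 14.04 CPM in controls and 1.85, 1.06 and 1.51 CPM in HP1-KD libraries, with a log2 fold change of −3.08 ± 0.26 (edgeR adjusted p = 0.000778), and the call held in each of the 7 fits that leave out a library. PsiU5-44 in tra2 fell by 3.21 ± 0.71 on the log2 scale (edgeR adjusted p = 0.0346) and PsiU1-6 in dmt by 2.13 ± 0.37 (edgeR adjusted p = 0.0148). Among scaRNAs named Me, MeU5-U42 fell from 1.59 to 2.69 CPM in controls to 0.0717 to 0.276 CPM, a log2 fold change of −3.98 ± 0.73 (edgeR adjusted p = 0.0187). MeU2-C41 had a log2 fold change of −3.42 ± 0.70 (edgeR adjusted p = 0.0272) and MeU2-48 of −2.54 ± 0.38 (edgeR adjusted p = 0.00892). PsiU2-38.40.42, PsiU6-40, MeU2-G25 and MeU4-A65 were not called, with log2 fold changes of −2.43 to −1.60. MeU2-G25 overlapped between the conditions and the other 3 did not.

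**Figure D4:**
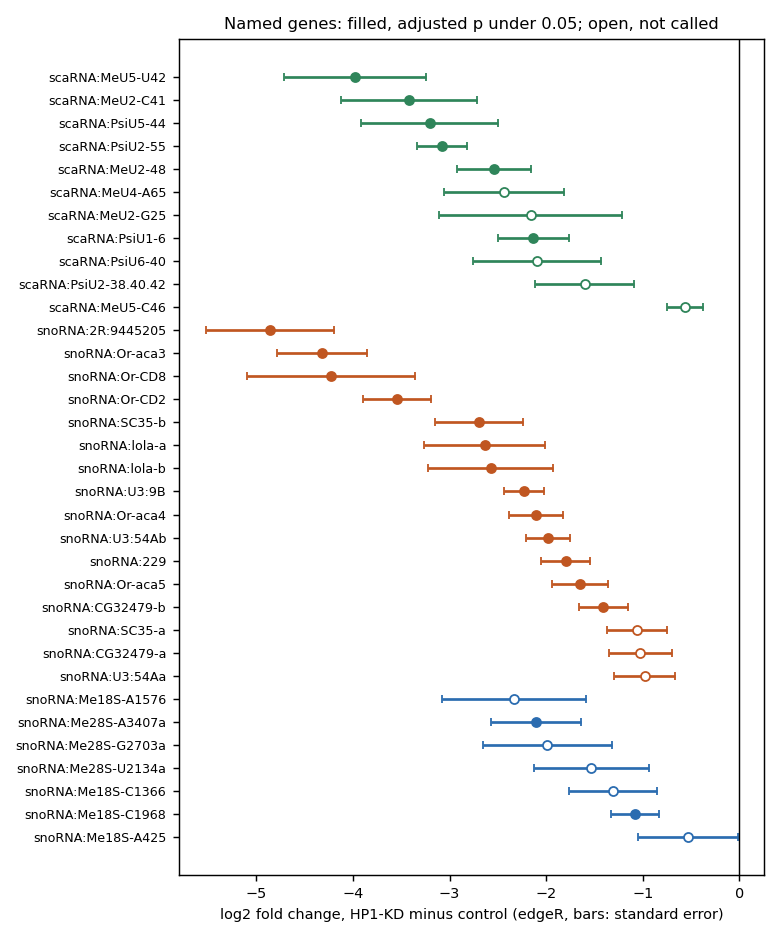
log2 fold change (HP1-KD minus control, edgeR) of the 34 tested genes named by the rule other than Me18S-C1096, with standard errors as bars and colours by group. Filled points had an adjusted p under 0.05 over 8008 genes and open points did not; all lie to the left of 0, from −4.86 for snoRNA:2R:9445205 to −0.53 for Me18S-A425.

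Few host genes were called, and most of those rose. Of 64 tested host genes, 2 fell (Uhg3 and Uhg5) and 5 rose (Fib, Nop60B, RpL3, pths and skd), and their median log2 fold change was 0.03. For 39 of the tested small RNAs the host was tested too, and in all 39 the log2 fold change of the small RNA was below that of its host. These RNAs had a median of −2.10 and their 33 hosts a median of 0.15. Of the 21 that fell, 20 had a host that was not called and 1 (snoRNA:229 in Fib) had a host that rose. This order is a description, since scarce RNAs can enter the test through their control libraries alone. The differences from the hosts were not tested, and some were within the error. Me28S-A1322, for one, had a log2 fold change of −0.19 ± 0.72 and its host eEF1alpha1 −0.11 ± 0.17. The median was −0.76 over the 8 tested non-coding hosts, against −0.73 over all 258 tested non-coding genes, and 0.06 over the 56 tested protein-coding hosts, with Uhg5 at −1.04 ± 0.20 (edgeR adjusted p = 0.0232), Uhg3 at −0.78 ± 0.14 (edgeR adjusted p = 0.0185), and Uhg1 and Uhg2 not called at −0.75 ± 0.31 and −1.27 ± 0.41. Uhg7 was not called at 0.82 ± 0.24 (edgeR adjusted p = 0.0782), with every HP1-KD library above every control library. Uhg8 was not called at −1.80 ± 0.52 (edgeR adjusted p = 0.0699), with every HP1-KD library below every control library. It was scarce, at a mean of 0.993 CPM in controls and 0.246 CPM in HP1-KD libraries.

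**Figure D5:**
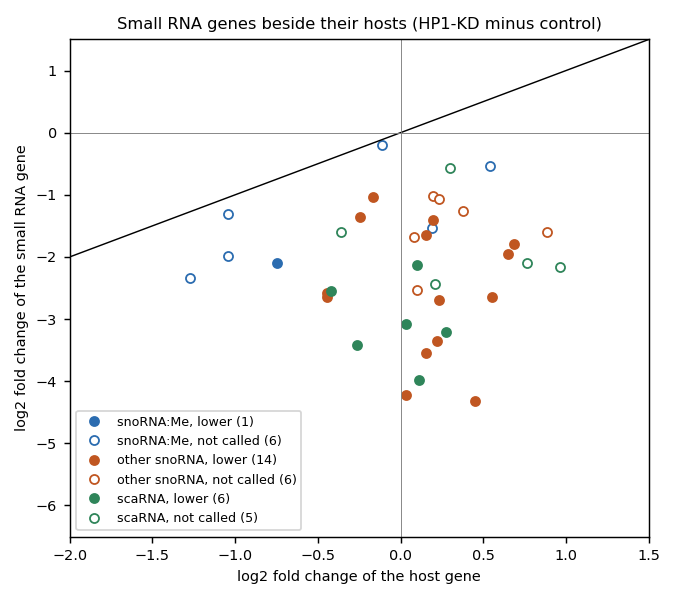
log2 fold change (HP1-KD minus control, edgeR) of each small RNA gene (vertical) against that of its host gene (horizontal), for 38 of the 39 pairs in which both were tested; Me18S-C1096, with 0.5 counts in HP1-KD libraries, is left out. The diagonal marks equal change and filled points fell. All points lie below the diagonal, some by less than the standard error of the small RNA, while hosts spread from −1.27 to 0.96. The differences were not tested.

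Genes for the proteins of these complexes showed small changes of either sign. Fib, the methyltransferase of box C/D complexes, rose by 0.68 ± 0.17 on the log2 scale (edgeR adjusted p = 0.0497), and Nop60B, the pseudouridine synthase of H/ACA complexes, rose by 0.60 ± 0.12 (edgeR adjusted p = 0.0255). The other C/D core proteins tested, nop5 and Nop56, and the H/ACA proteins NHP2, Gar1 and Nop10 were not called, with log2 fold changes of −0.09 to 0.32. Of 6 genes for assembly and the Cajal body, coil, which encodes coilin, fell by 0.49 ± 0.11 (edgeR adjusted p = 0.0346), and pont, rept, spag, WDR79 and Nopp140 were not called. None of 4 genes that process introns and RNA ends (ldbr, Rat1, Rrp6, Dis3) was called. In all, 17 of these genes were tested, of which 2 rose and 1 fell.

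Other short RNAs were lower in the same libraries. The 106 snoRNA:Psi genes summed to 39.6% of control, and 64 of their 85 tested genes fell. Spliceosomal snRNA genes summed to 36.4% of control with 20 of 27 tested genes falling. The 295 tRNA genes summed to 12.0%, with 255 to 940.5 counts per control library and 14.5 to 45.5 per HP1-KD library. Only 10 of them were tested, and all 10 fell. With so few HP1-KD counts, these 10 entered the test mainly through the controls, so their number is a description. Genes for 7SL RNA, RNase P RNA and RNase MRP RNA, with annotated lengths of 299 to 382 nt, summed to 116.8% of control, with none of 4 falling and 1 rising. Other tested genes with exons of at most 300 nt (38 genes) had a median log2 fold change of −0.70, and 6 of them fell. The part of a library-wide loss of short RNAs in the results for snoRNAs and scaRNAs was not tested.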

How the data were processed

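RNA was sequenced from 4 control and 3 HP1-KD libraries (TruSeq Stranded Total RNA). The estimated counts (expected counts, one value a gene with steps of 0.5) were made by the authors from aligned reads and deposited without normalization. The submitters' processing notes name STAR and dm6, and the counting program and its options are not given in the sources used here. The tissue label of HP1-KD samples names wild type, and titles and genotypes were followed. Values were rounded, and genes kept by filterByExpr (8008 of 17699) were fitted with edgeR 4.0.16 in R 4.3.3 (TMM scaling, quasi-likelihood F-test, condition as the only term, Benjamini-Hochberg adjustment, threshold 0.05). The fit was tested on simulated data. Positions, lengths and hosts came from Ensembl release 115, with 17561 identifiers matched. A host is a gene on the same strand that spans the RNA. A count of 3 corresponds to 0.129 to 0.210 CPM in control and 0.276 to 0.463 CPM in HP1-KD libraries.

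Members and gene lists were chosen with earlier results of these data known. Genes named were every tested scaRNA, every U3 and U14, the 6 guides and 6 other snoRNAs with the highest control CPM per kb, the 6 largest falls, and RNAs of hosts with most tested RNAs (6 hosts tied at 2 each). Hosts, list genes and Tudor-SN-a were named in addition, the last after its values were seen. Alternatives changed scaling, filter, rounding, tool (DESeq2 1.42.0, limma-voom 3.58.1), threshold and libraries. hoip was not analysed here. No sequences are shown.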

Additional observations from a re-analysis of the deposited data

Results flagged for a closer look

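Among 40 sets of 4 control values (the summed levels, the tested genes named by the rule, and Su(var)205), 2 held a library far from the other 3, and chance flags about 1 in 20 such sets. For Or-CD8, control library 4 stood at 0.425 CPM, against 1.06 to 1.08 CPM in the other controls. For scaRNA PsiU6-40, control library 3 stood at 0.794 CPM, against 0.419 to 0.476 CPM in the other controls. Without control library 4, Or-CD8 had a log2 fold change of −4.47 (edgeR adjusted p = 0.0284), and without control library 3, PsiU6-40 no longer passed the filter on low counts.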

How the results depend on the processing

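Of the 152 RNAs, 27 fell in the fit reported, and 27 also fell with DESeq2 size factors, upper-quartile scaling, TMM over protein-coding genes or scaling to counts outside ribosomal RNA. None rose under any alternative. With total counts alone, which moved the median of all genes to −1.15, 46 fell (7 snoRNA:Me, 11 scaRNAs), as did 1064 of all 8008 tested genes. The medians were then −3.25 for all, −2.81 for snoRNA:Me, −3.16 for other snoRNAs and −3.62 for scaRNAs, and the log2 ratios of the summed levels −3.01, −2.11, −3.07 and −2.44. With at least 10 counts in every library, 11 of 16 tested fell (1 snoRNA:Me, 9 other snoRNAs, 1 scaRNA). The medians were then −1.43 for all, −1.12 for snoRNA:Me, −1.45 for other snoRNAs and −1.87 for scaRNAs. This filter removes RNAs that became rare and RNAs that were scarce in both groups, and their parts in the shift were not tested. With no filter, 25 fell, among them 1 snoRNA:Me, and the scaRNA median was −2.16. DESeq2's Wald test called 36, with 4 snoRNA:Me, and called 785 of all 8008 tested genes lower. Limma-voom called 25, with 1 snoRNA:Me and medians of −1.15 for snoRNA:Me and −2.18 for scaRNAs, and called 328 of all 8008 tested genes lower. At an adjusted p under 0.01, 9 fell (0 snoRNA:Me, 7 other snoRNAs, 2 scaRNAs), and under 0.1, 40, with 5 snoRNA:Me. How many of all tested genes passed these thresholds was not counted, so these numbers stand without a share to compare. Where the cause of a shift is not stated, the cause was not tested.

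Replicate numbers 1 to 3 occur in both groups with no stated pairing. Deviations from the group means correlated at r = 0.46, −0.107 and 0.058 for numbers 1, 2 and 3, so that not every library correlated best with its own number. With the replicate number as a block, 6 RNAs fell (0 snoRNA:Me, 5 other snoRNAs, 1 scaRNA), and all 48 log2 fold changes were negative. In that fit 73 of all 8008 tested genes fell.

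Leaving out each library in turn gave 10 to 32 RNAs called lower, 0 to 3 snoRNA:Me, 8 to 22 other snoRNAs and 2 to 7 scaRNAs. The same fits called 130 to 637 genes lower over the whole table. The medians of the tested RNAs ranged from −2.27 to −1.76 for all 3 groups together, −2.02 to −1.30 for snoRNA:Me, and −2.84 to −2.49 for scaRNAs. A further alternative, chosen after seeing the data, kept HP1-KD replicate 2 as the only HP1-KD library. It assumes that this library varies like the controls, so only effect sizes are given. The scaRNA median was then −2.80 and the log2 ratio of the summed snoRNA:Me level −0.74. The log2 fold change was −1.18 for Su(var)205 and 0.14 for Me18S-A425, the only change of sign among the genes named. Of the 73 snoRNA:Me guides, 64 had too few counts for the test, and the part of depth and of RNA length in this was not tested.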
